A study of Homo sapiens with 7 samples.

Results

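The 10 genes described here are the early growth response genes EGR1, EGR2 and EGR3, the orphan nuclear receptor genes NR4A1, NR4A2 and NR4A3, the immediate early response genes IER2, IER3 and IER5, and SRF. They were chosen by name, with earlier results of these libraries known, out of the 23710 genes of the expression table. The cells were SNU398, an established human hepatocellular carcinoma line, and each of 4 cultures received 1 peptide at 30 µM for 8 hours: PEN (penetratin), PEN-MUT, PEN-WT or PEN-FFW. From what is known of the study, penetratin is a cell-penetrating carrier, PEN-WT attaches it to the RBBP4-binding stretch of SALL4 (RBBP4 is a chromatin protein), PEN-MUT carries a mutated form of that stretch and PEN-FFW an engineered variant. All 4 libraries therefore carry the carrier peptide, and no library of cells without peptide is analysed here. RNA was sequenced from 1 library per peptide, so the differences have no replicate check and no p-value.

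Immediate early genes are transcribed within minutes of a growth factor, stress or second messenger signal, without new protein synthesis. SRF is the DNA-binding protein at the serum response element: it binds the CArG box and works with ETS-family cofactors that are switched on by the kinase ERK, or with actin-regulated cofactors. EGR1, EGR2 and EGR3 are zinc finger transcription factors, and EGR1 is a standard readout of ERK signalling through SRF. NR4A1, NR4A2 and NR4A3 are nuclear receptors that act without a known ligand and are controlled mainly through how much of them is made, in many cells through cyclic AMP and CREB. IER2, IER3 and IER5 are small proteins outside these families; IER3 is linked to cell survival, and IER5 to the heat shock factor HSF1.

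The promoters of the members differ in which of these inputs their sequences hold. Those of EGR1, SRF and EGR2, which hold a CArG box, and that of NR4A3, which does not, are shown. They were chosen with the differences below known, and whether these sequences bear on the levels was not tested. RefSeq windows of 300 bases (250 before the start site to 50 after) were found for 7 of the 10 members, 11 windows in all because some genes have several start sites. Each was placed on GRCh37 by an exact match. EGR2, NR4A1 and SRF have more than 1 window. NR4A2, EGR3 and IER3 are named only. Capitals mark the CArG box and TGACG or its reverse complement CGTCA, the short form of the cyclic AMP response element (short CRE below).
EGR1 (chr5:137800918-137801217, plus strand): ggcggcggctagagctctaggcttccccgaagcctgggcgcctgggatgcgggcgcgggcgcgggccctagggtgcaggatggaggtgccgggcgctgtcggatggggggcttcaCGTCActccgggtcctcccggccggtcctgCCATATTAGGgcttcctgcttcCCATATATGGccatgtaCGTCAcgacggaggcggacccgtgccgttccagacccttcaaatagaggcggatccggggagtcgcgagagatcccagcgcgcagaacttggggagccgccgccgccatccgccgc
SRF, window 1 (chr6:43138757-43139056, plus strand): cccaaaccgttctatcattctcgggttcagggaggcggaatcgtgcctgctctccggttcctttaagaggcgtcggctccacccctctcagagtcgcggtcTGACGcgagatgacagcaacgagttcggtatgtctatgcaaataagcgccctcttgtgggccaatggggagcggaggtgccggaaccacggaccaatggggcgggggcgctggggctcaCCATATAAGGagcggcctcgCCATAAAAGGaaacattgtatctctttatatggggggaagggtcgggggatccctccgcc
EGR2, window 3 (chr10:64576077-64576376, minus strand): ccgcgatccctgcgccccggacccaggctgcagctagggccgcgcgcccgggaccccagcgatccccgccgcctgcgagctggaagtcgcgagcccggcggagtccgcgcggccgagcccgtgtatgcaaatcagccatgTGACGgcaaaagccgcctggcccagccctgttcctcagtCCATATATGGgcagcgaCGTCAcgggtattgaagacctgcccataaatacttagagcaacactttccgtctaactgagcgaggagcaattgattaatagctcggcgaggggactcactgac
NR4A3 (chr9:102583917-102584216, plus strand): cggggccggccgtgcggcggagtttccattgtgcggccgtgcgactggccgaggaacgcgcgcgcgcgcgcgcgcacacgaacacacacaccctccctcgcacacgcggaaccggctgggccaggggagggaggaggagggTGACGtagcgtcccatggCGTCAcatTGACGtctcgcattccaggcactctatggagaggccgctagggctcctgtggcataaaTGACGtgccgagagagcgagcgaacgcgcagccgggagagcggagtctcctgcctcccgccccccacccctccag

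The EGR1 window held 2 CArG boxes, at -105 to -96 and -83 to -74 counted with the start site as 0, flanked by 2 short CREs. SRF held 2 CArG boxes as well, at -30 to -21 and -10 to -1, so the gene for the CArG-binding protein has that box in its own window. Window 3 of EGR2 held 1 CArG box, at -71 to -62. No CArG box was found in the windows of NR4A1, NR4A3, IER2 or IER5. NR4A3 held 4 short CREs, IER2 held 1, and none of these windows held the full element TGACGTCA, which contains TGACG on both strands. Of all 35116 RefSeq windows of this length, searched on both strands, 1.29% held a CArG box, 0.0313% held at least 2, 24.6% held TGACG, 0.313% held it at least 4 times and 1.85% held TGACGTCA. The ETS core CCGGAA, found in 17.2% of windows, was in those of NR4A1, IER2, IER5 and SRF. A match is a run of letters, and nothing about binding in these cells was measured here.

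**Figure D1:**
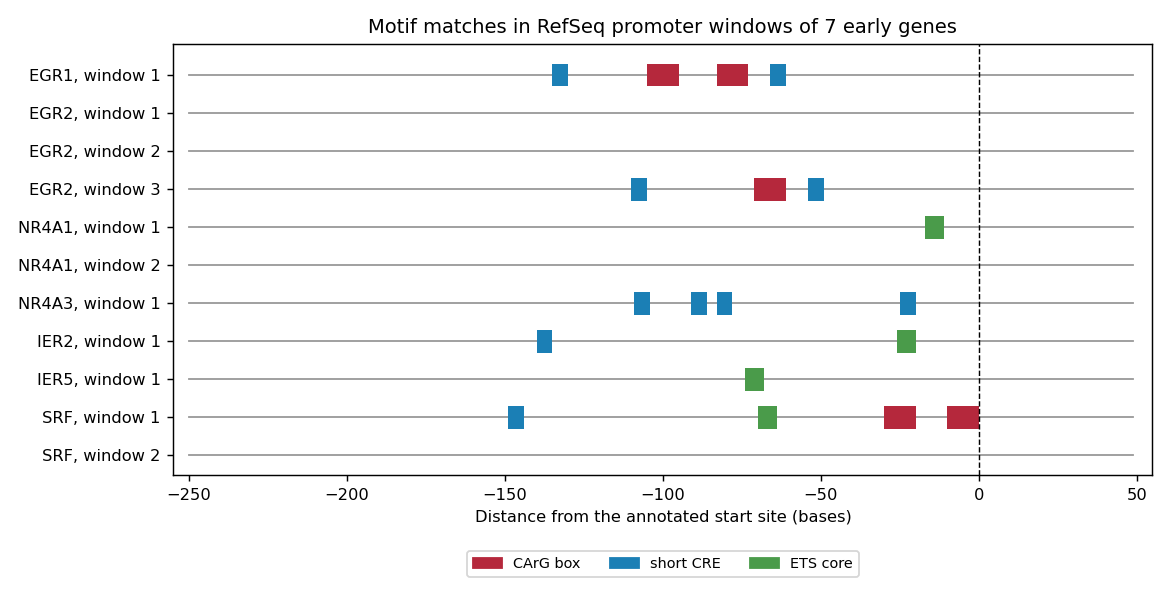
Positions of the CArG box, the short CRE and the ETS core in the 11 RefSeq promoter windows of 7 early genes; the x axis is the distance in bases from the annotated start site (dashed line), and each grey line is 1 window. EGR1 and SRF carry 2 CArG boxes each, and NR4A3 carries 4 short CREs and no CArG box.

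The deposited values are log2 normalized counts, that is, reads per gene times 1 factor per library, and are given below as normalized counts with the log undone. Library depth was 27347377 to 40717633 reads in genes above the table's floor of 5 normalized counts. Differences are log2(normalized count + 10) of 1 library minus another, relative to the median of the 12578 genes with a mean of at least 50 normalized counts, and ± is the counting standard error. The median gene of PEN-FFW lay at -0.27 from PEN, -0.30 from PEN-MUT and -0.30 from PEN-WT as deposited, so PEN-FFW counts read lower than the differences do. Of the members, 8 passed the filter, and EGR2 and EGR3 did not. Hepatocyte markers were mostly low: APOB, TTR and SERPINA1 were at the floor in every library, AFP had 7.76 to 11 normalized counts and ALB 83.1 to 157, while the hepatocellular carcinoma marker GPC3 had 998 to 1281. Among markers of other cells, PECAM1 was at the floor, but the leukocyte gene PTPRC had 298 to 373, the macrophage gene CD68 224 to 283, COL1A1 127 to 221 and ACTA2 673 to 1061; their part in the results was not tested. Whether the counting used strand is not known. EGR3, NR4A1, NR4A3, IER2 and IER3 each overlap an annotated antisense gene, and EGR2 a noncoding gene on its own strand. Reads of these genes may be counted with those of the members. The overlap is of whole gene spans, introns included, and overlap of exons was not examined.

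EGR1 was high in the PEN library alone. It had 3726 normalized counts with PEN, 1153 with PEN-MUT, 1437 with PEN-WT and 1252 with PEN-FFW, from 1153 to 4437 reads. The 3 libraries other than PEN lay close together, well below PEN. EGR1 stood at -1.70 ± 0.05 in PEN-MUT against PEN, the lowest of all 12578 tested genes. PEN-WT gave -1.40 ± 0.04 and PEN-FFW -1.30 ± 0.04, lower than all but 1 tested gene in both. All 3 of these comparisons share the PEN library.

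Among the libraries given a SALL4-type peptide, EGR1 was lowest in PEN-MUT. The difference from PEN-MUT was 0.31 ± 0.05 for PEN-WT and 0.42 ± 0.06 for PEN-FFW (0.12 as deposited). Between PEN-FFW and PEN-WT the order depended on the scaling, at 0.10 ± 0.05 relative to the median gene and -0.20 as deposited.

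EGR2 and EGR3, which encode related zinc finger factors, were near the limit of counting. EGR2 had 56.3 normalized counts with PEN, 32 with PEN-MUT, 33.4 with PEN-WT and 29.5 with PEN-FFW, from 67, 32, 43 and 32 reads. PEN was again the highest, and the exact 95% Poisson intervals of the reads were 51.9 to 85.1 in PEN, 21.9 to 45.2 with PEN-MUT, 31.1 to 57.9 with PEN-WT, and 21.9 to 45.2 with PEN-FFW. EGR3 had 21.0 normalized counts with PEN, 10 with PEN-MUT, 18.6 with PEN-WT and 15.7 with PEN-FFW, from 25, 10, 24 and 17 reads. The EGR2 difference was -0.68 ± 0.25 in PEN-MUT and -0.64 ± 0.23 in PEN-WT against PEN, with intervals below 0, and -0.47 ± 0.24 in PEN-FFW, where the interval reached 0. For EGR3 only PEN-MUT against PEN (-0.65 ± 0.30) and PEN-FFW against PEN-MUT (0.66 ± 0.31) had counting intervals that excluded 0. EGR1 supplied 98.0% of the reads of the 3 EGR genes in PEN (Clopper-Pearson 95% interval 97.5% to 98.4%), and 96.5% in each of the other libraries. EGR4, the remaining family gene, was at the floor in every library.

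**Figure D2:**
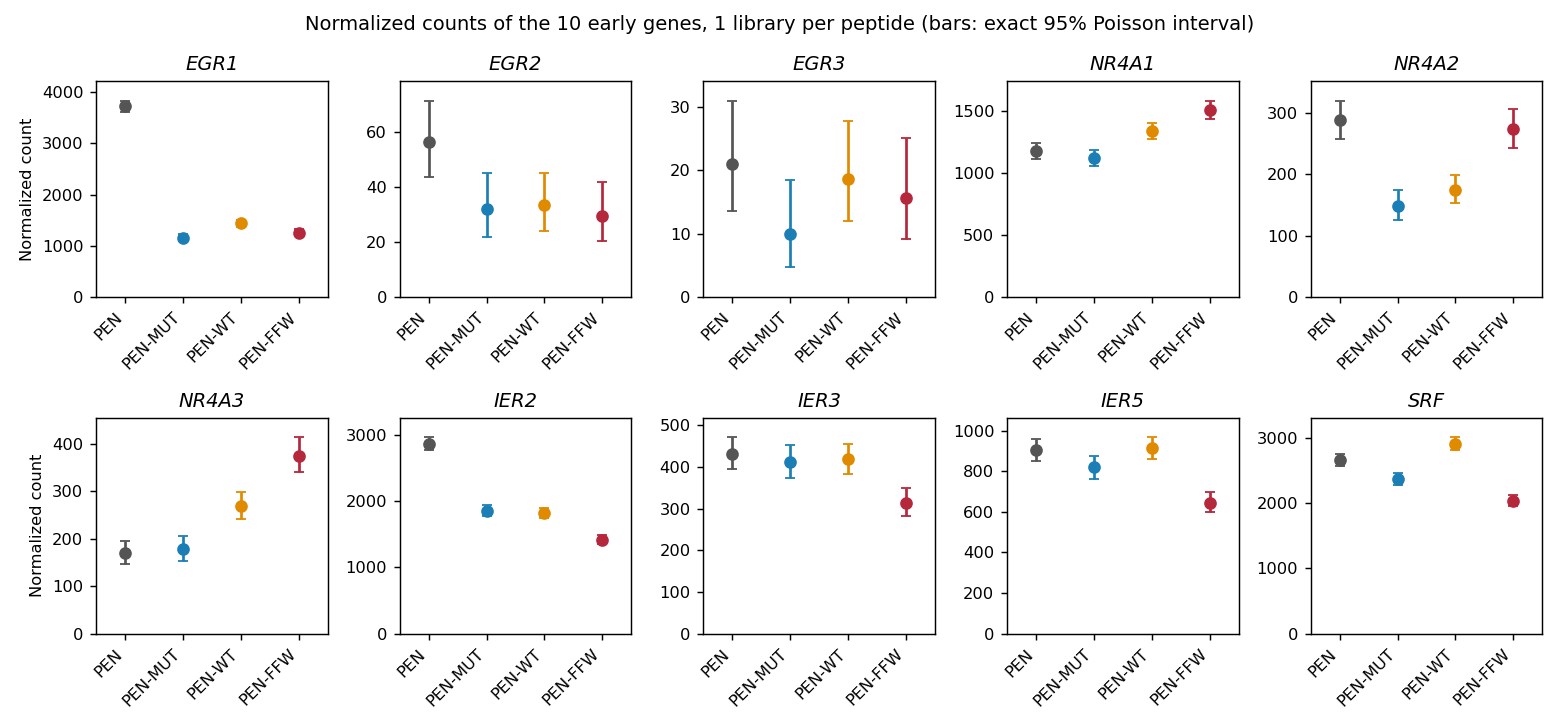
Normalized counts (y axis, from 0) of the 10 early genes in the 4 libraries (x axis), 1 per peptide, with exact 95% Poisson intervals of the reads as bars. EGR1 is 3726 in PEN and 1153 to 1437 in the other libraries, NR4A3 is 170 in PEN and 375 in PEN-FFW, and NR4A2 is high in PEN and PEN-FFW.

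NR4A3 and NR4A1 were highest in PEN-FFW, and NR4A2, like EGR1, was lower in PEN-MUT and PEN-WT than in PEN. NR4A3 had 170 normalized counts with PEN, 178 with PEN-MUT, 268 with PEN-WT and 375 with PEN-FFW. PEN and PEN-MUT were alike, PEN-WT was higher and PEN-FFW the highest. Against PEN, NR4A3 stood at 0.04 ± 0.14 with PEN-MUT, 0.60 ± 0.12 with PEN-WT and 1.37 ± 0.12 with PEN-FFW. In PEN-WT that is just past a 1.5-fold difference, with a counting interval of 0.36 to 0.84. In PEN-FFW only 70 tested genes were higher.

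NR4A3 also separated the peptides when PEN was left aside. Its difference from PEN-MUT was 0.56 ± 0.13 in PEN-WT and 1.33 ± 0.12 in PEN-FFW. PEN-FFW exceeded PEN-WT by 0.77 ± 0.10, and by 0.47 as deposited, which is under 1.5-fold.

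NR4A1, the most abundant of the 3 receptors, had 1177 normalized counts with PEN, 1123 with PEN-MUT, 1338 with PEN-WT and 1510.3 with PEN-FFW. The order of the libraries was that of NR4A3 except that PEN and PEN-MUT changed places, with no difference beyond counting error between PEN and PEN-MUT (-0.09 ± 0.06). NR4A1 stood at 0.15 ± 0.05 in PEN-WT and 0.63 ± 0.05 in PEN-FFW against PEN, and its distance from PEN-MUT was 0.25 ± 0.05 and 0.72 ± 0.06. Both PEN-FFW differences of NR4A1 also passed 1.5-fold with equal totals per library (0.68 from PEN, 0.77 from PEN-MUT) and with median-ratio scaling (0.63 and 0.72). They did not pass as deposited (0.36 and 0.42) or against genes of like GC content (0.45 and 0.58). The NR4A1 transcript has a GC content of 60.7%, above that of 86.0% of tested genes.

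NR4A2 had 288 normalized counts with PEN, 148 with PEN-MUT, 175 with PEN-WT and 273 with PEN-FFW. PEN and PEN-FFW were high, and PEN-MUT and PEN-WT low. It stood at -0.94 ± 0.13 in PEN-MUT and -0.72 ± 0.12 in PEN-WT against PEN, lower than all but 2 and all but 18 tested genes. In PEN-FFW the difference from PEN was 0.20 ± 0.11 relative to the median gene and -0.07 as deposited, and no difference was detectable at this depth. PEN-FFW exceeded PEN-MUT by 1.14 ± 0.14 (0.84 as deposited) and PEN-WT by 0.92 ± 0.12. PEN-WT and PEN-MUT did not differ beyond counting error (0.22 ± 0.14).

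The make-up of the NR4A family, which does not depend on how libraries were scaled, shifted with these levels. NR4A3 took 10.4% of NR4A reads in PEN (Clopper-Pearson 95% interval 9.06% to 11.8%, counting error only), 12.3% with PEN-MUT (10.6% to 14.1%), 15.0% with PEN-WT (13.6% to 16.6%), and 17.4% with PEN-FFW (15.85% to 19.0%). NR4A2 took 17.6% in PEN (15.9% to 19.4%), 10.2% with PEN-MUT (8.70% to 11.9%), 9.81% with PEN-WT (8.62% to 11.1%), and 12.7% with PEN-FFW (11.3% to 14.1%). These are shares of reads, not corrected for transcript length, so each gene is followed across libraries and the 2 genes are not ranked by them. The NR4A3 share was lowest in PEN and highest in PEN-FFW, and the NR4A2 share was highest in PEN. Per kilobase NR4A2 took 14.1% of the family and NR4A3 5.16% in PEN, 8.10% and 6.04% in PEN-MUT, 7.90% and 7.51% in PEN-WT, and 10.4% and 8.88% in PEN-FFW. By this measure NR4A2 was the larger of the 2 in all 4 libraries. That order rests on the canonical transcript lengths used, as NR4A3 had more reads than NR4A2 in every library except PEN. In PEN-WT the gap was small, and it was not set against counting error. The summed NR4A level per kilobase of transcript was 587 normalized counts with PEN, 526 with PEN-MUT, 637 with PEN-WT and 753 with PEN-FFW.

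**Figure D3:**
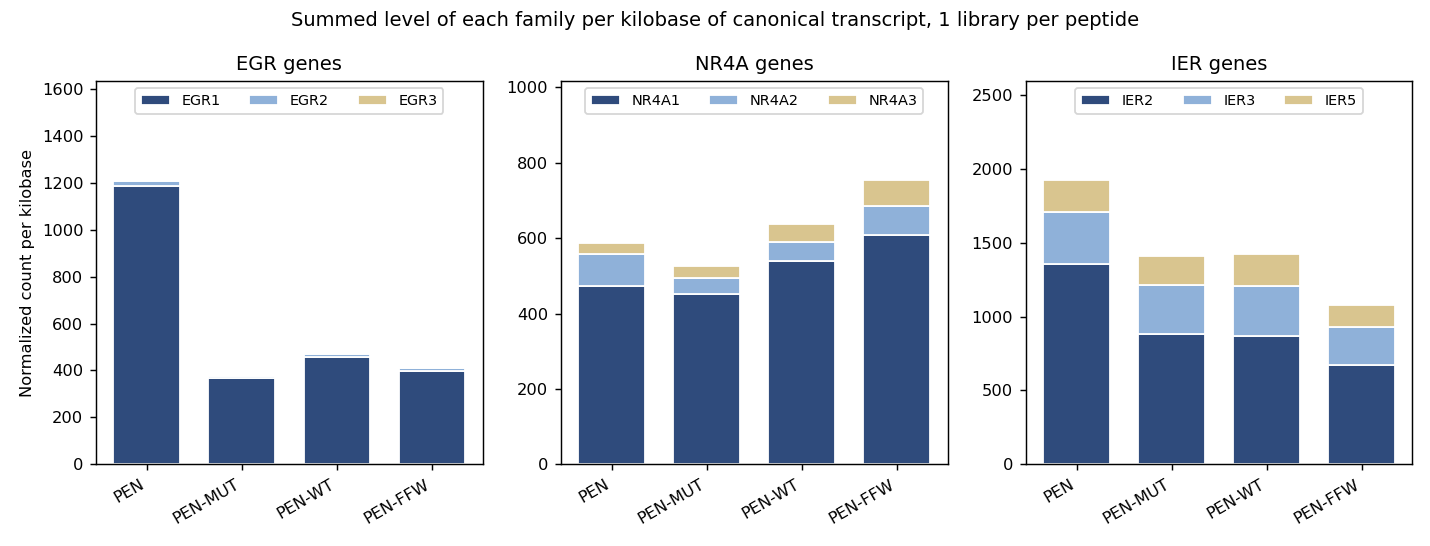
Summed level of the EGR, NR4A and IER genes in normalized counts per kilobase of canonical transcript (y axis, from 0) in the 4 libraries (x axis), 1 library per peptide, with each gene as a segment. The EGR bar is 1211 in PEN and 381 in PEN-MUT, the NR4A bar is highest in PEN-FFW (753), and the IER bar is lowest there (1079.7 against 1922 in PEN).

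IER2, which encodes a nuclear protein of the early response, was high in PEN. It had 2865 normalized counts with PEN, 1855 with PEN-MUT, 1826 with PEN-WT and 1417 with PEN-FFW. As with EGR1, PEN stood apart, and PEN-MUT and PEN-WT were alike (-0.02 ± 0.04). IER2 stood at -0.65 ± 0.04 with PEN-MUT, -0.68 ± 0.04 with PEN-WT and -0.74 ± 0.04 with PEN-FFW against PEN. PEN-FFW differed from PEN-MUT by -0.09 ± 0.05 and from PEN-WT by -0.06 ± 0.05, both within counting error. As deposited these were -0.39 and -0.36, and against genes of like GC content -0.25 and -0.17. The IER2 transcript has a GC content of 63.0%, above that of 92.0% of tested genes.

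IER3 and IER5 showed little of this. IER3 had 432 normalized counts with PEN, 412 with PEN-MUT, 419 with PEN-WT and 315 with PEN-FFW. PEN, PEN-MUT and PEN-WT were alike, and PEN-FFW was lower by about as much as the median gene, at -0.18 ± 0.10 from PEN (-0.45 as deposited). The counting intervals of IER3 included 0 in all 6 pairs of libraries. IER5 had 903 normalized counts with PEN, 819 with PEN-MUT, 913 with PEN-WT and 645 with PEN-FFW. It stood at -0.16 ± 0.07 with PEN-MUT, -0.01 ± 0.06 with PEN-WT and -0.21 ± 0.07 with PEN-FFW against PEN, the last being -0.48 as deposited. IER2 supplied 68.2% of the reads of the 3 IER genes in PEN (interval 66.9% to 69.5%), 60.1% with PEN-MUT (58.4% to 61.8%), 57.8% with PEN-WT (56.3% to 59.3%), and 59.6% with PEN-FFW (57.7% to 61.5%). IER5L and IER3IP1 were listed beside these genes by name, which does not make IER3IP1 a relative of IER3. Against PEN, IER5L stood at 0.01 ± 0.08 with PEN-MUT, 0.14 ± 0.08 with PEN-WT and -0.07 ± 0.09 with PEN-FFW. IER3IP1 stood at -0.15 ± 0.07, -0.22 ± 0.07 and -0.38 ± 0.08 in the same order.

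SRF, the factor upstream of several of these genes and itself an early gene, varied less than EGR1 or IER2. It had 2664.5 normalized counts with PEN, 2371 with PEN-MUT, 2917 with PEN-WT and 2037 with PEN-FFW. PEN-WT was the highest library, unlike for EGR1. SRF stood at -0.19 ± 0.04 with PEN-MUT, 0.10 ± 0.03 with PEN-WT and -0.12 ± 0.04 with PEN-FFW against PEN. PEN-WT exceeded PEN-MUT by 0.30 ± 0.04, and PEN-FFW against PEN-WT gave -0.21 ± 0.04 (-0.52 as deposited). Set against genes of like GC content, SRF stood at 0.01 in PEN-WT and -0.29 in PEN-FFW against PEN. PEN-FFW and PEN-MUT did not differ beyond counting error relative to the median gene (0.08 ± 0.04), and the sign turned as deposited (-0.22) and against genes of like GC content (-0.06).

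Counted over the 8 tested members, 3 were lower by at least 1.5-fold in PEN-MUT than in PEN (EGR1, NR4A2 and IER2) and 0 higher. The same share over all tested genes was 0.35% lower and 0.215% higher. In PEN-WT against PEN the same 3 were lower and NR4A3 was higher, beside 0.374% and 0.827% of tested genes. In PEN-FFW against PEN, EGR1 and IER2 were lower and NR4A1 and NR4A3 higher, beside 0.437% and 7.24%. With PEN-MUT as the base, 0 members passed 1.5-fold in PEN-WT (0.898% of tested genes were higher and 0.0159% lower). In PEN-FFW against PEN-MUT the 3 NR4A genes were higher, beside 7.24% of tested genes, and none of the 8 lower, beside 0.0875%. In PEN-FFW against PEN-WT, NR4A2 and NR4A3 were higher (4.17%) and none lower (0.0318%). Since the genes were chosen with earlier results known, these counts describe them and support nothing further.

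**Figure D4:**
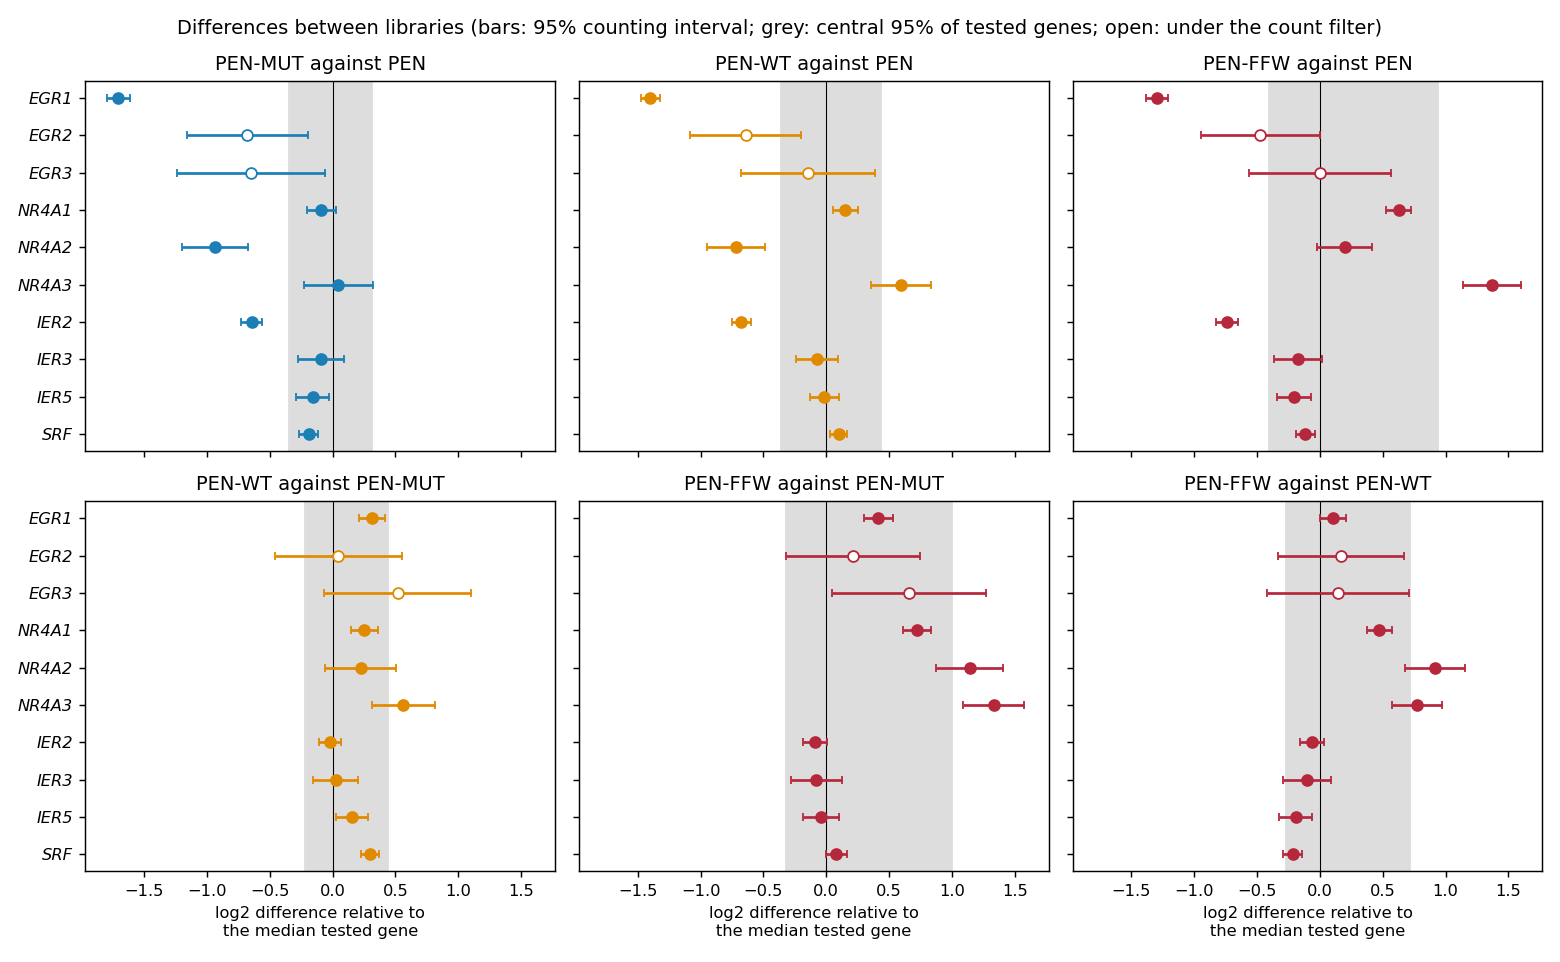
Log2 difference of normalized counts relative to the median tested gene (x axis) for the 10 early genes (y axis) in the 6 pairs of libraries, with 95% counting intervals as bars, grey bands for the central 95% of tested genes and open symbols for EGR2 and EGR3, which were under the count filter. EGR1 and IER2 lie left of the band in all 3 comparisons with PEN, and NR4A3 lies right of it in every pair except PEN-MUT against PEN. NR4A2 against PEN (0.20 in PEN-FFW, -0.07 as deposited) is low in PEN-MUT and PEN-WT only. NR4A2 lies right of the band in PEN-FFW against PEN-MUT and PEN-WT.

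Per kilobase of canonical transcript, IER2 and EGR1 were the most abundant members in PEN, at 1358 and 1188 normalized counts per kilobase. SRF followed at 630, then NR4A1 at 474, IER3 at 350, IER5 at 215, NR4A2 at 83.0, NR4A3 at 30.3, EGR2 at 18.9 and EGR3 at 4.65. In PEN EGR1 was well above NR4A1, and in the other libraries this order was turned per kilobase. Without division by transcript length, EGR1 stayed above NR4A1 in PEN-MUT (1153 against 1123 normalized counts) and PEN-WT (1437 against 1338). It was below NR4A1 in PEN-FFW (1252 against 1510). NR4A1 had 452 per kilobase against 368 for EGR1 in PEN-MUT, 539 against 458 in PEN-WT and 608 against 399 in PEN-FFW. NR4A3 approached NR4A2 in PEN-WT (47.8 against 50.3) and in PEN-FFW (66.9 against 78.7).

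The genes nearest to a member were sought by the Euclidean distance, over the 4 libraries, between log2 profiles set to the median gene and to each gene's own mean. Small RNA genes and genes with clone or placeholder names (such as LOC, LINC, KIAA and open reading frame names) were left out of this rank. The nearest to EGR1 were DUSP5, a phosphatase of ERK (distance 0.64), the receptor gene GPR3 (0.70), the Notch target HES1 (0.70), the ERK pathway inhibitor SPRY4 (0.70) and the G protein regulator RGS16 (0.71). These distances are large: the 5 genes stood at -0.87 to -0.72 in PEN-MUT against PEN, where EGR1 stood at -1.70. IER2 had close neighbours: the ETS factor ETV4 (0.06), the AP-1 gene JUNB (0.06), PPP1R3C (0.10), B3GALT1 (0.12) and LHX6 (0.12). ETV4 had 1826 normalized counts with PEN, 1217 with PEN-MUT, 1221 with PEN-WT and 948 with PEN-FFW. For NR4A2 they were BTNL9 (0.17), DDTL (0.25), ANKRD20A12P (0.33), HAS3, a hyaluronan synthase (0.37), and the kinase gene MAP3K14 (0.38); DDTL and ANKRD20A12P have near-identical copies and are uncertain. SRF lay among many genes that varied little, with RUNX3, SNX27, PRCC, AKIRIN2 and LIPT2 all at a distance of 0.04. Among the members themselves, IER3 and IER5 were the closest pair (0.10) and EGR1 and NR4A3 the most distant (1.97).

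Genes of a broad list, called other immediate early genes here, were often lower than in PEN. The list was set by name and also holds genes such as the Notch target HES1. Of 41 tested, 36 were below the median gene when PEN-MUT was set against PEN, with a median of -0.32. PEN-WT had 25 below it (median -0.16) and PEN-FFW 28 (median -0.23). Over all tested genes the median is 0 by construction. At least 1.5-fold lower than PEN were 6, 7 and 11 of the 41 in the same order, against 0.35%, 0.374% and 0.437% of all tested genes, and higher by as much were 0, 1 (JUN, named after its value was seen) and 0. In PEN-MUT the 4 farthest from PEN were DUSP6 (-1.19 ± 0.02), DUSP5 (-0.82 ± 0.16), FOSL1 (-0.76 ± 0.19) and HES1 (-0.72 ± 0.08). FOSL1, a partner of JUN, had 120 normalized counts with PEN, 68 with PEN-MUT, 106 with PEN-WT and 79.4 with PEN-FFW, with its lowest level in PEN-MUT. DUSP6 was farther from PEN with PEN-WT (-1.74 ± 0.02) and PEN-FFW (-1.84 ± 0.03), and lower than EGR1 in both (-1.40 and -1.30). In PEN-FFW, FOS was at -1.23 ± 0.06 and DUSP4 at -1.04 ± 0.16 against PEN. With PEN-MUT as the base the medians were 0.03 in PEN-WT and 0.03 in PEN-FFW. In PEN-WT, 2 of the 41 were higher by at least 1.5-fold and 0 lower, beside 0.898% and 0.0159% of tested genes. In PEN-FFW, 0 were higher and 2 lower, beside 7.24% and 0.0875%.

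The factors that act with SRF differed less from PEN than EGR1 or IER2, but some differed more than IER3, IER5 or SRF. Of 5 tested SRF cofactors, 0 passed 1.5-fold in any of the 6 pairs. ELK3, an ETS cofactor, had 1000.1 normalized counts with PEN, 778 with PEN-MUT, 774 with PEN-WT and 701 with PEN-FFW, and stood at -0.38 ± 0.07, -0.40 ± 0.06 and -0.24 ± 0.07 against PEN. The other tested ETS cofactors lay nearer the median gene, with mixed signs. ELK4 stood at -0.09 ± 0.04 with PEN-MUT, -0.07 ± 0.04 with PEN-WT and 0.08 ± 0.04 with PEN-FFW against PEN. ELK1, added to complete the ETS cofactors, gave -0.05 ± 0.05, 0.08 ± 0.05 and -0.17 ± 0.05. The actin-regulated cofactors MKL1 and MKL2 were at 0.15 ± 0.06 and 0.07 ± 0.07 with PEN-MUT, the latter within counting error. Both were higher than in PEN with PEN-WT (0.38 ± 0.06 and 0.23 ± 0.06) and PEN-FFW (0.43 ± 0.06 and 0.51 ± 0.06). Of 14 tested cytoskeletal SRF targets, 0 passed 1.5-fold in any of the 6 pairs. FHL2 was at -0.36 ± 0.12 with PEN-MUT, -0.40 ± 0.12 with PEN-WT and -0.39 ± 0.13 with PEN-FFW, and the focal adhesion gene ZYX at -0.26 ± 0.05, 0.08 ± 0.05 and 0.18 ± 0.05, in the same order of libraries.

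Among 8 tested partners of EGR, NR4A and IER proteins, 0 passed 1.5-fold in any pair. NAB2, a corepressor that binds EGR1 and is itself an EGR target, had 4870.5 normalized counts with PEN, 3860 with PEN-MUT, 3886 with PEN-WT and 2967 with PEN-FFW. PEN was the highest library, as for EGR1, and NAB2 stood at -0.36 ± 0.03, -0.36 ± 0.03 and -0.44 ± 0.03 against PEN. RXRA and RXRB, with which NR4A1 and NR4A2 pair, were at 0.09 ± 0.06 and -0.11 ± 0.05 with PEN-MUT, 0.22 ± 0.06 and 0.25 ± 0.05 with PEN-WT, and 0.17 ± 0.07 and -0.03 ± 0.05 with PEN-FFW. PPP2R2A, a regulatory subunit of the phosphatase that binds IER5, was at -0.22 ± 0.05, -0.30 ± 0.05 and -0.24 ± 0.06.

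The 17 genes of the ERK cascade, from the receptor to the kinases that act on SRF cofactors, were all tested, and 0 passed 1.5-fold against PEN. Their medians were 0.03 with PEN-MUT, 0.05 with PEN-WT, and 0.06 with PEN-FFW. EGFR, with 149 normalized counts with PEN, 112 with PEN-MUT, 161 with PEN-WT and 149.6 with PEN-FFW, was the farthest from PEN in PEN-MUT (-0.40 ± 0.16). EGFR was also the 1 gene of the cascade past 1.5-fold in any of the 6 pairs, in PEN-FFW against PEN-MUT (0.69 ± 0.16, beside 7.24% of tested genes). As deposited, this EGFR difference (149.6 against 112) was under 1.5-fold. In PEN-MUT against PEN, RPS6KA1 (0.20 ± 0.06), MAPK3 (0.17 ± 0.06) and MAP2K2 (0.17 ± 0.02) followed EGFR in distance, on the higher side.

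Of 10 genes of the CREB arm, 7 were below the median gene when PEN-MUT was set against PEN, and 6 and 7 lay above it in PEN-WT and PEN-FFW. PRKACA, a catalytic subunit of the cyclic AMP-dependent kinase, had 542 normalized counts with PEN, 448 with PEN-MUT, 724 with PEN-WT and 555 with PEN-FFW. It stood at -0.29 ± 0.09 with PEN-MUT, 0.38 ± 0.07 with PEN-WT and 0.30 ± 0.08 with PEN-FFW against PEN. The CREB coactivator genes CRTC2 and CRTC3 were at -0.17 ± 0.08 and -0.20 ± 0.06 with PEN-MUT, 0.42 ± 0.07 and 0.16 ± 0.05 with PEN-WT, and 0.18 ± 0.08 and 0.22 ± 0.06 with PEN-FFW. CREM, which yields both activators and repressors, was at -0.24 ± 0.05, -0.29 ± 0.05 and -0.42 ± 0.05. Against PEN, 1 of the 10 passed 1.5-fold, CRTC1 in PEN-FFW (0.74 ± 0.06, named after its values were seen), beside 7.24% of tested genes. In PEN-WT against PEN-MUT 2 passed, PRKACA (0.68 ± 0.08) and CRTC2 (0.59 ± 0.07), beside 0.898%. In PEN-FFW against PEN-MUT 2 passed, CRTC1 (0.84 ± 0.06) and PRKACA (0.60 ± 0.09), beside 7.24%, and in PEN-FFW against PEN-WT 0 passed. As deposited, none of these PEN-FFW differences of CRTC1 and PRKACA reached 1.5-fold. CRTC1 had 904 normalized counts with PEN, 863 with PEN-MUT and 1257 with PEN-FFW.

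**Figure D5:**
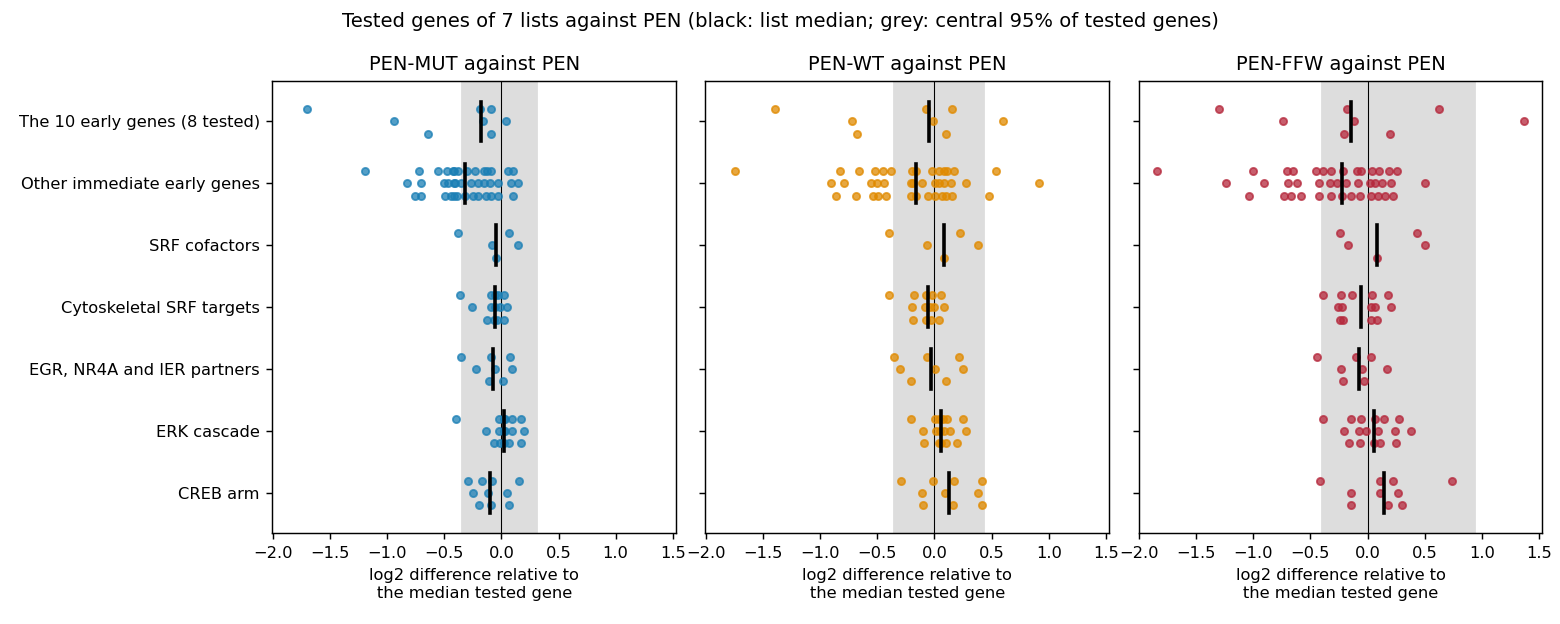
Log2 differences from the PEN library, set to the median tested gene (x axis), for the tested genes of 7 lists (rows), as points in 1 panel per peptide, with black marks at list medians and grey bands for the central 95% of tested genes. The medians of the other immediate early genes are -0.32, -0.16 and -0.23, and those of the ERK cascade 0.03, 0.05 and 0.06.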

How the data were processed

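RNA from SNU398 cells given 1 of 4 peptides was sequenced, 1 library per peptide (4 of the 7 samples of the series; the 3 chromatin samples are not analysed here). The deposited values are log2 values. Per the labels, alignment was to hg19 by STAR; the submitters' processing notes list STAR 2.4.0i together with featureCounts 1.5.0-p1. Which annotation, strand option and normalization were used is not stated in these sources. In each library 100% of values above the floor of 5 were whole multiples of 1 factor (tolerance 0.1 read; PEN 0.840, PEN-MUT 1, PEN-WT 0.776, PEN-FFW 0.923), which gave back the reads.

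Genes with a mean of at least 50 normalized counts were kept (12578 of 23710). The pseudocount was 10. Counting errors follow the Poisson law and cover counting only; sequenced fragments are not independent molecules. Positions, length and GC content of the canonical transcript came from GENCODE 44 on GRCh37 (symbols placed 20574 genes and RefSeq synonyms 1567, leaving 1569), and promoter windows from the RefSeq table, built on GRCh38.p14. The calculation was tested on simulated data (Python 3.11.15, numpy 2.4.6, pandas 2.3.3, scipy 1.17.1). Members and lists were chosen with earlier results of these data known. Of each other list, at most the 4 genes farthest from PEN in PEN-MUT, and any gene past 2-fold against PEN, were named, and 5 nearest genes each for EGR1, NR4A2, IER2 and SRF. Another pseudocount, other scalings, other filters and a GC reference were tried.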

Additional observations from a re-analysis of the deposited data

How the results depend on the processing

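No paired analysis was possible because each peptide has 1 library, and no replicate could be left out. Of 384 values of the 8 tested early genes (48 differences under 8 alternatives), 326 moved by less than their counting interval and 58 by more. The sign changed in 12. In 2 of these the difference had lain outside its counting interval: EGR1 in PEN-FFW against PEN-WT (0.10), which became -0.20 as deposited and -0.15 with no filter on low genes. In the other 10 it had lain within that interval; among them NR4A2 in PEN-FFW against PEN (0.20) became -0.07 as deposited and with no filter, SRF in PEN-FFW against PEN-MUT (0.08) became -0.22 in both and -0.06 against genes of like GC content, and the rest were IER3 and IER5. The deposited log2 values, a pseudocount of 1, a minimum mean of 10, equal totals per library and median-ratio scaling moved none of the 48 differences by more than counting error. Differences of members with no filter equalled those as deposited in every pair except PEN-FFW against PEN-WT. These 2 alternatives largely repeat each other and hold most of the 58 values that moved. Against genes of like GC content 10 moved, and 2 of the 8 members, not 1, lay below the reference in PEN-WT against PEN-MUT. Other immediate early genes lower by at least 1.5-fold numbered 11, 2 and 0 in PEN-FFW against PEN, PEN-MUT and PEN-WT; as deposited these were 19, 4 and 7, and with no filter 19, 4 and 5. Tested genes at least 1.5-fold apart numbered 71, 151, 966, 115, 922 and 528 for the pairs PEN-MUT with PEN, PEN-WT with PEN, PEN-FFW with PEN, PEN-WT with PEN-MUT, PEN-FFW with PEN-MUT, and PEN-FFW with PEN-WT. With a minimum mean of 10 they were 233, 292, 1661, 279, 1676 and 1142, with no filter 234, 335, 1825, 304, 1669 and 894, and against genes of like GC content 98 in PEN-WT against PEN. With a pseudocount of 1, 4 of the 5 genes nearest to NR4A2 and to SRF stayed among the nearest 5, as did all 5 for EGR1 and IER2. Depth limits EGR2 and EGR3, whose lowest libraries had 32 and 10 reads.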
